A study of Mus musculus with 16 samples.

Results

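The 9 genes described here are widely read as signs of kidney tubular injury, and they were followed in kidneys of mice homozygous for the Kl (Klotho) mutation. They are Havcr1, Lcn2, Clu, Gdf15, Plaur, Tnfrsf12a, Itgb6, Anxa2 and Anxa3, they were chosen by name, and all 9 of 9 names were found among the 30277 genes of both deposited expression tables. Kidneys of mice congenic on 129S1/SvlmJ, perfused and flash frozen, had been profiled by sequencing of polyA RNA, and the series asks how renal failure and sex affect kidney expression. The male table held 3 controls, heterozygous +/Kl with healthy renal function at 45 to 46 days of age, and 5 Kl/Kl mice with renal disease at 44 to 47 days. The female table held 4 controls, +/+ with healthy renal function at 45 to 49 days, and 4 Kl/Kl mice with renal disease at 45 to 54 days. Sex therefore went with the table and with the genotype of the controls, and these cannot be told apart. The mutation is carried by every cell of a Kl/Kl mouse and not by the kidney alone. The labels number the samples of a group without saying that each came from its own mouse, so a p-value covers no more than the spread of these libraries.

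When a tubule is injured, its epithelial cells switch on a set of proteins that are absent or low in the healthy kidney. Some are released and are measured in urine or blood as early signs of damage, among them the shed part of Havcr1 (KIM-1) and secreted Lcn2 (NGAL). Of the 9 genes, Lcn2, Clu and Gdf15 encode secreted proteins, Havcr1 and Plaur encode surface proteins that can be shed, Tnfrsf12a and Itgb6 encode surface receptors, and Anxa2 and Anxa3 encode proteins that bind the inner face of membranes and can also be found outside cells. The group name "secreted" is thus a loose one.

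The promoters of the 4 genes that passed the test in males are shown because Plaur is a known target of AP-1, the transcription factor family of Jun and Fos. Each line is the 250 bases before the transcription start in RefSeq (build GRCm38.p6, 5′ to 3′ on the gene's strand), in lower case, with capitals where the letters TGANTCA, the AP-1 motif searched on both strands, occur. For Havcr1 the most upstream of 3 listed starts is shown. Positions are chr11:46739973-46740222 on the plus strand for Havcr1, chr2:32387740-32387989 on the minus strand for Lcn2, chr7:24462233-24462482 on the plus strand for Plaur and chr9:69453433-69453682 on the plus strand for Anxa2.
Havcr1: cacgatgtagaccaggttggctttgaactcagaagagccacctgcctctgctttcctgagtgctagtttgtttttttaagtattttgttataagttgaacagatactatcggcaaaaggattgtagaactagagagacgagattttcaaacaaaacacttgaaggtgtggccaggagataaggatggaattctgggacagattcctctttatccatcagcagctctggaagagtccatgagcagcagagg
Lcn2: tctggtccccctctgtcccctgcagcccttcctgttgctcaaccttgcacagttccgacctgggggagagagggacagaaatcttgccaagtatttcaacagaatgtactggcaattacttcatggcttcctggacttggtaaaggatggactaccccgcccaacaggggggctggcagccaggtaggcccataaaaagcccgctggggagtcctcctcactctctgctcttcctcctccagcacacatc
Plaur: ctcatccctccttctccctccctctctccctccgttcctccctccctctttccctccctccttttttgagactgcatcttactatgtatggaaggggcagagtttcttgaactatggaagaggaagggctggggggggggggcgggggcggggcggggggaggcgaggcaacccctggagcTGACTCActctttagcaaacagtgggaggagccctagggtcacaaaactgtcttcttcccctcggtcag
Anxa2: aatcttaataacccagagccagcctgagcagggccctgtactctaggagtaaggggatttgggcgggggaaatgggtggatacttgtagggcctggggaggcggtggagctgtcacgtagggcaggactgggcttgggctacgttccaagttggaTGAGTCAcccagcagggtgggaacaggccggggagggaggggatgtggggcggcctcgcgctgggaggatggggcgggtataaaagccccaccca

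Plaur held TGACTCA at bases -69 to -63 and Anxa2 held TGAGTCA at bases -95 to -89 from the start, and the letters were in neither of the other windows printed. Of 32851 windows of this length, 6.75% held the motif. RefSeq promoters were matched for 7 of the 9 genes, all but Clu and Anxa3, and among the 7 the motif was in those of Plaur and Anxa2. Among 4 other motifs searched on both strands, the letters of an NF-kB motif (GGG, any 5 bases, CC) were in the windows of Lcn2, Gdf15, Plaur and Tnfrsf12a and in 45.8% of all windows. The CRE letters TGACGTCA (1.55% of all windows), the STAT letters TTCNNNGAA (7.02%) and the letters TGATGNAA of the stress-response element CARE (3.45%) were in none of the members' windows. A match describes letters and not a bound site.

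Kl, the mutated gene, stood in the libraries labelled Kl/Kl at a mean of 1.10% of control in males (log2 change -5.56, limma adjusted p = 2.31e-04) and 1.53% in females (-5.74, limma adjusted p = 0.0997), with no overlap between groups. Without male control replicate 3 the male value was 0.844% (-6.11, limma adjusted p = 6.54e-04). Without female Kl/Kl replicate 3 the female value was 1.98% (-5.36, limma adjusted p = 0.0629), and neither sex had overlap. Estimated depths were 21.6 to 31.9 M reads. A pair of libraries stood apart from the others. Female Kl/Kl replicate 3 had a median Spearman correlation of 0.747 with its table's other libraries, against 0.926 to 0.946 in the 14 ordinary libraries. Its proximal tubule markers (8 genes) summed to 14.1 TPM, against 301 to 654 in those 14, and its distal markers (8 genes) to 2.16 TPM. Its heart muscle markers summed to 2026 TPM (at most 2.04 elsewhere) and its airway markers to 1119 TPM (at most 0.471), so its values go against the label of kidney. Male control replicate 3 had a correlation of 0.907, a mitochondrial share of 54.3% (35.4% to 44.8% in the 14) and proximal tubule markers at 297 TPM. The log2 changes of the 9 genes are given with and without the library concerned. In males, the median log2 change of all genes was 0.27 with all libraries and 0.06 without control replicate 3, and 908 genes (556 higher, 352 lower) or 1236 genes (447 higher, 789 lower) passed the test. With columns rescaled by the median of gene ratios the male median was 0.05 and the calls were 835 higher and 1002 lower. With voom on estimated reads they were 1930 higher and 837 lower, or 1476 and 883 without control replicate 3.

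Values are TPM as the authors deposited them, where each gene appears to have been divided by its whole genomic span with introns. Levels of a gene can thus be set against the same gene in other libraries but not against other genes. A sum over a marker list is carried by its genes with high values, and was set only against the same sum in other libraries. Lyz2, for example, gave 427 of the 500 TPM of the macrophage sum in female Kl/Kl replicate 3. A change is a difference of means on the log2(TPM + 0.1) scale, tested with limma over all genes that averaged 0.1 TPM or more, and a gene is called when its Benjamini-Hochberg adjusted p is under 0.05. In males, 4 of the 9 genes were called with all libraries: Lcn2, Plaur and Anxa2 rose and Havcr1 fell. Of all 17382 genes tested, 5.22% were called, 3.2% higher and 2.03% lower. Without control replicate 3, 3 of 9 were called, Havcr1, Lcn2 and Anxa2, against 7.07% of all genes, 2.56% higher and 4.51% lower. The median change of the 9 genes was 0.41 beside 0.27 for all genes, and 0.04 beside 0.06 without that library.

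**Figure D1:**
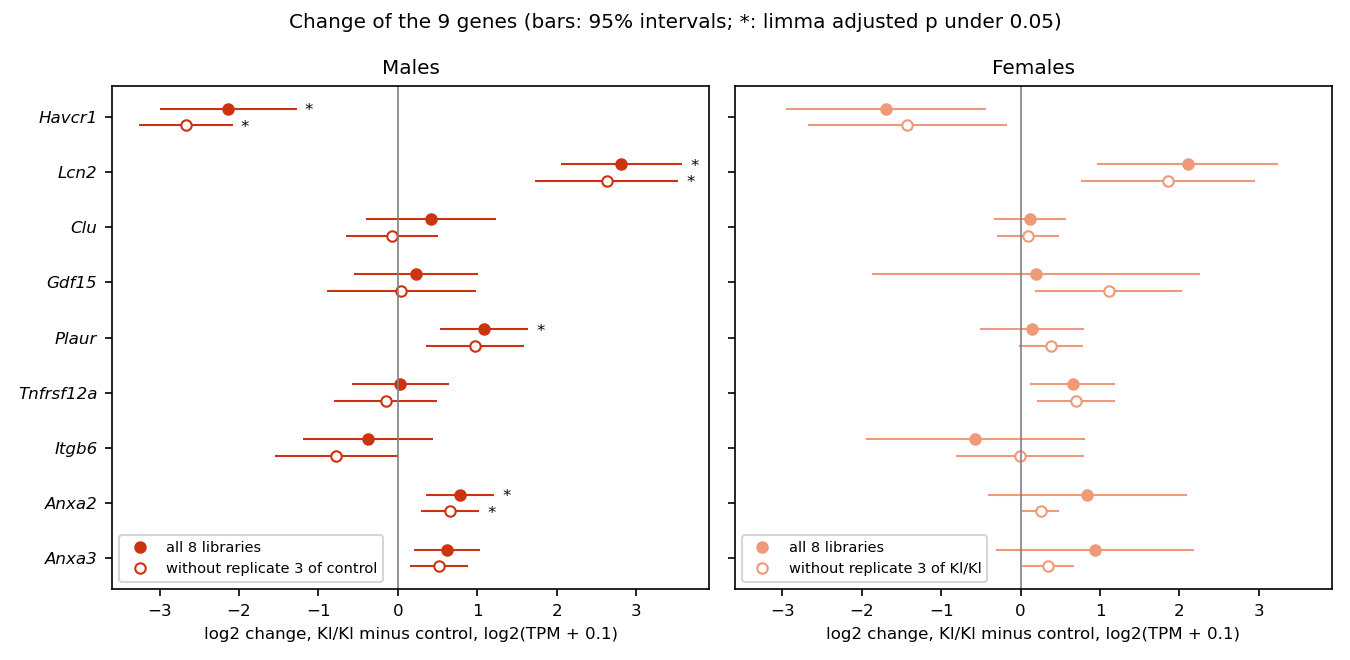
Change of each of the 9 genes, Kl/Kl minus control, on the log2(TPM + 0.1) scale (x axis), in males (left) and females (right); points are limma estimates, bars 95% intervals, filled points all 8 libraries, open points without replicate 3 of the male control or of the female Kl/Kl group, and stars adjusted p under 0.05. Havcr1 lies left of zero and Lcn2 right of zero in both sexes. Stars appear in males only, where Havcr1 reached -2.13 and Lcn2 2.81 with all libraries. The added 0.1 TPM shrinks the male change of Havcr1, whose Kl/Kl values all lie under it. The difference between the sexes was tested separately.

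Havcr1 (11:46625907-46670406, plus strand, mm39) encodes KIM-1, a surface glycoprotein of injured proximal tubule cells that binds dying cells and whose outer part is shed into urine. It stood at 0.963, 0.740 and 0.211 TPM in male control replicates 1 to 3. In the 5 male Kl/Kl libraries it stood at 0.0139, 0.0708, 0.0343, 0.0392 and 0.0990 TPM. All 5 Kl/Kl values were under the lowest control, and that lowest control was the library that stood apart. These levels correspond to an estimated 14.0 to 134 reads in Kl/Kl and 337 to 1120 reads in controls. The mean fell from 0.638 ± 0.387 (SD, n = 3) to 0.0514 ± 0.0335 TPM (SD, n = 5), which is 8.06% of control, or 6.04% without control replicate 3. The log2 change was -2.13 (SE 0.38, limma adjusted p = 0.0148), and -2.67 (SE 0.25, adjusted p = 0.00167) without control replicate 3. All 5 Kl/Kl values lay under the 0.1 TPM added before the log, which makes the log2 change smaller than that of the means. With all libraries it ran from -3.74 to -0.61 over 7 other settings. The call was lost when control replicate 1 (adjusted p = 0.0563) or control replicate 2 (adjusted p = 0.0712) was left out, and with no filter on low values (adjusted p = 0.0510). This injury marker was thus lower, not higher, in the male kidneys labelled diseased.

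The female values of Havcr1 were spread more widely. Controls stood at 1.13, 0.217, 0.659 and 0.297 TPM, and Kl/Kl libraries at 0.0958, 0.0387, 0.00381 and 0.281 TPM, the third of these being the library that stood apart. The highest Kl/Kl library lay above the lowest control, so the groups overlapped by 1 library on each side. Means were 0.575 ± 0.416 TPM (SD, n = 4) in controls and 0.105 ± 0.123 TPM (SD, n = 4) in Kl/Kl, or 18.2% of control, and 24.1% without Kl/Kl replicate 3. This was a log2 change of -1.69 (limma adjusted p = 0.769), and of -1.43 (SE 0.53, limma adjusted p = 0.295) without that library, which did not pass the threshold. In bulk RNA, fewer cells of a type and less RNA per cell cannot be told apart.

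Markers of the proximal tubule, the segment that makes KIM-1, were read beside Havcr1. The 8 markers summed to 654, 584 and 297 TPM in male controls and to 301 to 515 TPM in Kl/Kl. Among them Slc7a13 (an amino acid transporter subunit; 32.3 to 2.62 TPM in mean, log2 change -3.54, limma adjusted p = 9.10e-04) and Slc22a6 (the organic anion transporter OAT1; 103 to 30.6 TPM, -1.74, adjusted p = 0.0301) fell, and the other 6 of 8 were not called. Without control replicate 3 those 2 were called lower and Slc5a12, a lactate transporter, was called higher (9.05 to 23.2 TPM, 1.36, adjusted p = 0.0194). In females without Kl/Kl replicate 3 the sums overlapped, at 494 to 594 TPM in controls and 470 to 568 TPM in Kl/Kl, and no marker was called. Slc7a13 stood there at 4.89, 4.31 and 0.802 TPM in Kl/Kl, and at 0.584 to 0.988 TPM in controls. For the difference between the male and female changes, without the libraries that stood apart, 1 of 8 markers was called higher in males and 2 lower, beside 2.39% of all genes. The part of these markers in the level of Havcr1 was not tested.

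Lcn2 (2:32274645-32278265, minus strand) encodes NGAL, a small secreted protein that binds iron-carrying siderophores and is made by stressed distal tubules and collecting ducts and stored in neutrophils. Male controls stood at 0.740, 0.590 and 0.416 TPM. Male Kl/Kl libraries stood at 6.67, 4.14, 4.18, 7.17 and 2.49 TPM. The groups did not overlap, and the lowest Kl/Kl library was more than 3 times the highest control. The mean rose from 0.582 ± 0.162 (SD, n = 3) to 4.93 ± 1.95 TPM (SD, n = 5), 8.47-fold, or 7.41-fold without control replicate 3. The log2 change was 2.81 (SE 0.34, limma adjusted p = 0.00187), and 2.63 (SE 0.39, adjusted p = 0.0112) without control replicate 3. Lcn2 was called in males in each of the 8 fits that left out 1 library, with adjusted p between 8.32e-04 and 0.0119.

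In females Lcn2 stood at 2.08, 0.667, 0.779 and 0.388 TPM in controls and at 3.14, 2.54, 6.57 and 4.16 TPM in Kl/Kl. The groups did not overlap with or without Kl/Kl replicate 3, which was the highest, and control replicate 1 was well above the other controls. Means were 0.977 ± 0.751 and 4.10 ± 1.78 TPM (SD, n = 4 each), a ratio of 4.20, and 3.36 without Kl/Kl replicate 3. On the log2 scale the change was 2.10 (limma adjusted p = 0.769), and 1.85 (SE 0.47, limma adjusted p = 0.172) without that library. It did not pass the threshold, which no gene of 17747 (0%) or of 17509 (0%) passed in females. At an unadjusted p under 0.05 there were 757 genes with all libraries and 2583 without Kl/Kl replicate 3. Under the other settings 0 to 8 genes were called with all libraries and 0 to 32 without Kl/Kl replicate 3, the 32 with voom on estimated reads.

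**Figure D2:**
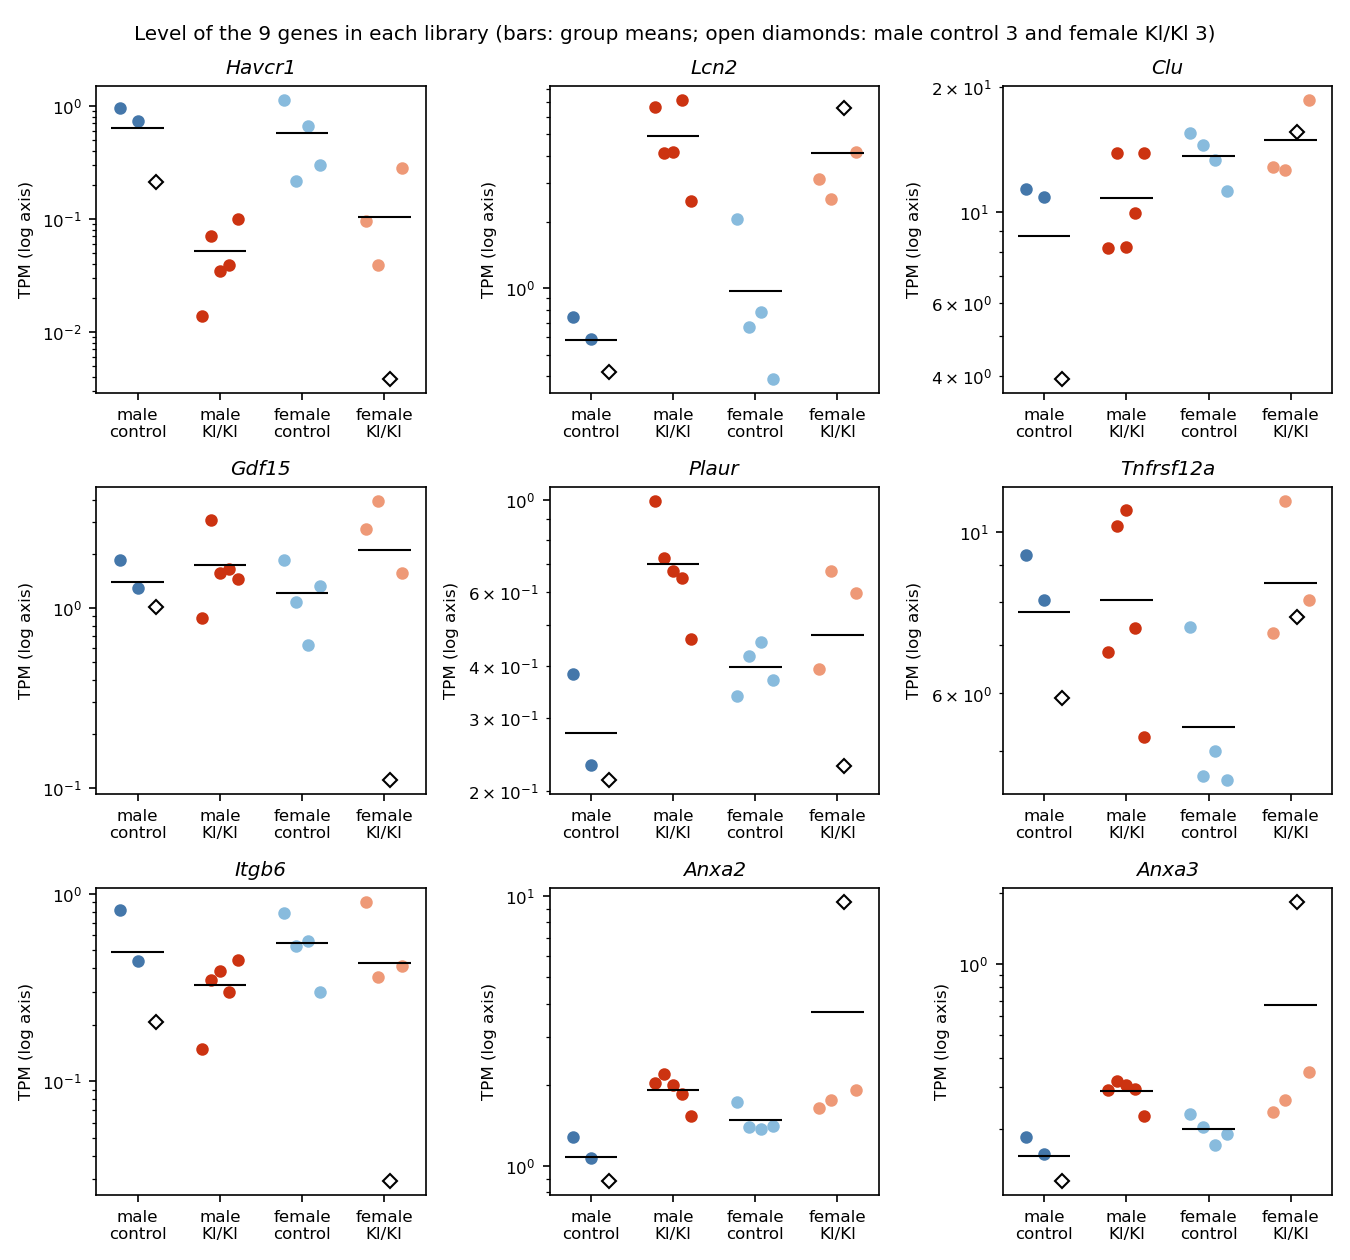
TPM of each of the 9 genes in every library on a log axis (y), by group (x), points being libraries and short lines group means, with male control replicate 3 and female Kl/Kl replicate 3 marked. For Lcn2 every Kl/Kl library lies above every control of its sex, and for Havcr1 every male Kl/Kl library lies below the lowest male control at 0.211 TPM.

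The libraries with most Lcn2 were also among those with most RNA of neutrophil genes. Neutrophil markers (8 of 10 listed genes were in the tables) summed to 0.180, 0.296 and 0.0955 TPM in male controls and to 6.78, 1.36, 0.907, 3.34 and 0.907 TPM in male Kl/Kl replicates 1 to 5. Replicates 1 and 4, the highest in this sum, had the 2 highest values of Lcn2. S100a8, a calcium-binding protein abundant in neutrophils, was called higher in males (0.0524 to 1.37 TPM, log2 change 2.87, limma adjusted p = 0.0240), and not without control replicate 3 (adjusted p = 0.0587). In females the sums were 1.78, 0.263, 0.157 and 0.0591 TPM in controls and 0.436, 1.33, 2.98 and 0.682 TPM in Kl/Kl, and control replicate 1 was the highest control for Lcn2 as well. Among the female Kl/Kl libraries that did not stand apart, the one with most neutrophil RNA, replicate 2, had the least Lcn2. The distal markers summed in males to 359, 296 and 127 TPM in controls and 406 to 498 TPM in Kl/Kl. Of 8 tested, 2 were called higher, Aqp2, the collecting duct water channel (49.7 to 138 TPM, limma adjusted p = 0.0191), and Scnn1g (0.663 to 1.36 TPM, adjusted p = 0.0431). Both were also called without control replicate 3 (log2 changes 1.31 and 0.69). There Atp6v1g3 was at 0.79, not called, and Umod, Slc12a1, Slc12a3, Calb1 and Cldn16 had changes of 0.05 to 0.32, beside 0.06 for all genes. The part of neutrophils or of distal segments in the level of Lcn2 was not tested.

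**Figure D3:**
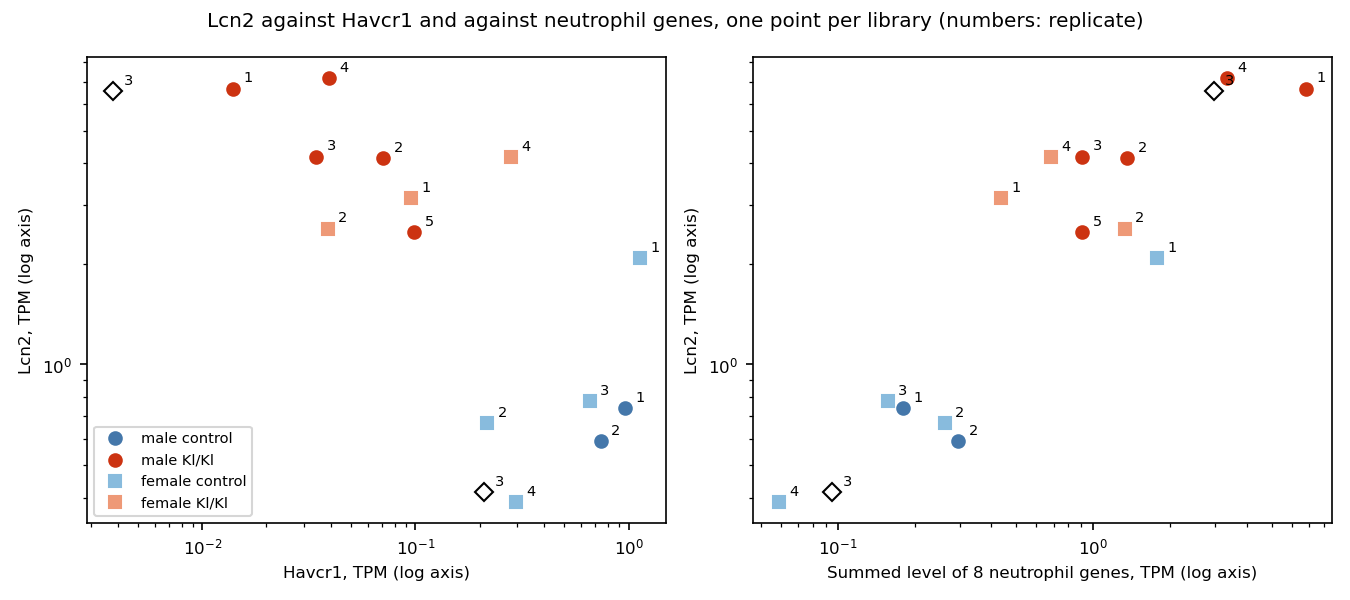
Lcn2 (y axis, TPM, log scale) against Havcr1 (left, x axis, TPM, log scale) and against the summed level of 8 neutrophil genes (right, x axis, TPM, log scale), one point per library with its replicate number, and open diamonds for male control replicate 3 and female Kl/Kl replicate 3. Controls lie at low Lcn2, from 0.388 to 2.08 TPM, and Kl/Kl libraries at 2.49 TPM and above, with male Kl/Kl replicates 1 and 4 high on both axes of the right panel.

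Clu (14:66205932-66218997, plus strand) encodes clusterin, a secreted chaperone that binds misfolded proteins outside cells. Its level in male controls was 11.4, 10.8 and 3.93 TPM and male Kl/Kl libraries at 8.17, 13.8, 8.23, 9.95 and 13.9 TPM. The groups overlapped, and the low control was replicate 3. Clu had a log2 change of 0.41 (95% interval -0.41 to 1.23, limma adjusted p = 0.476), and -0.08 (-0.66 to 0.50) without it, so its sign turned on that library. Female means were 13.7 ± 1.83 and 14.9 ± 2.82 TPM (SD, n = 4 each), and the log2 change was 0.12 (-0.33 to 0.57), or 0.09 (-0.30 to 0.48) without Kl/Kl replicate 3.

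Gdf15 (8:71082043-71085107, minus strand) encodes a hormone of the TGF-beta family that is released by stressed cells and acts on the receptor GFRAL in the hindbrain. In male controls it stood at 1.86, 1.29 and 1.02 TPM and male Kl/Kl libraries at 0.878, 3.10, 1.56, 1.65 and 1.45 TPM. The Kl/Kl libraries lay on both sides of the controls, and the log2 change was 0.23 (95% interval -0.56 to 1.01, limma adjusted p = 0.691), or 0.04 (-0.90 to 0.98) without control replicate 3. Under the median-of-ratios scaling the sign turned, to -0.01. In females the controls stood at 1.86, 1.08, 0.621 and 1.32 TPM and Kl/Kl at 2.76, 3.94, 0.111 and 1.56 TPM, the library that stood apart being the lowest. With it the log2 change was 0.19 (-1.87 to 2.26), and without it 1.11 (0.18 to 2.04, limma adjusted p = 0.277), so this library decided the size, and neither was called.

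Plaur (7:24161909-24175394, plus strand) encodes the receptor that holds urokinase, a protease that activates plasminogen, at the cell surface. The 3 male controls had 0.383, 0.231 and 0.213 TPM and male Kl/Kl libraries at 0.994, 0.726, 0.676, 0.650 and 0.463 TPM. All 5 Kl/Kl libraries lay above all 3 controls. Plaur, Lcn2, Anxa2 and Anxa3 were the 4 of 9 genes higher without overlap in males, with and without control replicate 3, beside 19% and 20.8% of all genes. Havcr1 was the 1 of 9 lower without overlap, beside 3.99% and 17.7%. The mean of Plaur rose from 0.276 ± 0.0936 (SD, n = 3) to 0.702 ± 0.191 TPM (SD, n = 5), 2.55-fold, or 2.29-fold without control replicate 3. On the log2 scale Plaur rose by 1.09 (SE 0.25, limma adjusted p = 0.0374), and 0.97 (SE 0.26, adjusted p = 0.0667) without control replicate 3, which ended the call. It was lost in 6 of the 8 fits that left out 1 library, with adjusted p up to 0.110, with log2(TPM + 1) (adjusted p = 0.0564) and with no filter on low values (adjusted p = 0.0742).

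In females Plaur stood at 0.339, 0.421, 0.456 and 0.370 TPM in controls and at 0.394, 0.676, 0.231 and 0.599 TPM in Kl/Kl. The groups overlapped, and the lowest value belonged to the library that stood apart. Plaur had a log2 change of 0.14 (95% interval -0.51 to 0.79), and of 0.38 (-0.02 to 0.78, limma adjusted p = 0.357) without it.

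Tnfrsf12a (17:23894419-23896443, minus strand) encodes Fn14, the receptor for the cytokine TWEAK. Male controls stood at 9.31, 8.07 and 5.91 TPM and male Kl/Kl libraries at 6.84, 10.2, 10.7, 7.37 and 5.23 TPM. The groups overlapped, with 2 Kl/Kl libraries above all controls and 1 below all of them. The log2 change was 0.03 (95% interval -0.58 to 0.64, limma adjusted p = 0.953). The sign of this change turned without control replicate 3 (-0.15, interval -0.80 to 0.50), under the median-of-ratios scaling (-0.23) and with voom on estimated reads (-0.09). Female controls stood at 7.41, 4.62, 5.00 and 4.56 TPM and female Kl/Kl libraries at 7.27, 11.0, 7.65 and 8.06 TPM. In females 3 of 4 Kl/Kl libraries lay above every control, and the other lay just below the high control, replicate 1. The female log2 change of 0.65 (limma adjusted p = 0.769), or 0.70 (SE 0.21, limma adjusted p = 0.213) without Kl/Kl replicate 3, was not called.

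Itgb6 (2:60428636-60552988, minus strand) encodes the integrin beta subunit that pairs with Itgav and frees TGF-beta from its latent complex. Itgb6 stood in male controls at 0.814, 0.439 and 0.207 TPM and male Kl/Kl libraries at 0.149, 0.345, 0.388, 0.300 and 0.442 TPM. The controls spread over a wider range than the Kl/Kl libraries and enclosed all but the lowest of them. Itgb6 had a log2 change of -0.38 (95% interval -1.19 to 0.44, limma adjusted p = 0.518), and -0.77 (-1.55 to 0.01, adjusted p = 0.181) without control replicate 3. Female means were 0.543 ± 0.199 and 0.425 ± 0.361 TPM (SD, n = 4 each), with 0.0293 TPM in the library that stood apart, and the log2 change was -0.57 (-1.95 to 0.81) with it and -0.00 (-0.81 to 0.80) without it.

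Anxa2 (9:69360902-69399078, plus strand) encodes annexin A2, which with S100a10 binds plasminogen and its activator at the cell surface. Male controls stood at 1.29, 1.07 and 0.882 TPM and male Kl/Kl libraries at 2.04, 2.20, 2.00, 1.85 and 1.53 TPM. The groups were apart and each was narrow. The mean rose from 1.08 ± 0.203 (SD, n = 3) to 1.92 ± 0.250 TPM (SD, n = 5), 1.78-fold, or 1.63-fold without control replicate 3. On the log2 scale Anxa2 rose by 0.78 (SE 0.19, limma adjusted p = 0.0486), and 0.66 (SE 0.16, adjusted p = 0.0496) without control replicate 3. The call sat close to the threshold: it was lost in 7 of the 8 fits that left out 1 library (adjusted p up to 0.118) and in 6 of 9 other settings, the median-of-ratios scaling among them (0.54, adjusted p = 0.0536).

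Anxa3 (5:96941198-96993826, plus strand) encodes another calcium-dependent membrane-binding annexin. Male controls stood at 0.186, 0.156 and 0.120 TPM and male Kl/Kl libraries at 0.292, 0.320, 0.306, 0.297 and 0.227 TPM. Although the groups did not overlap, the log2 change of 0.62 (SE 0.19) was not called (limma adjusted p = 0.0809), nor was that of 0.52 without control replicate 3 (adjusted p = 0.0865). It was called with voom on estimated reads (0.79, adjusted p = 0.0171).

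In females the annexins turned on the library that stood apart. Anxa2 stood at 1.73, 1.40, 1.37 and 1.41 TPM in controls and at 1.65, 1.76, 9.52 and 1.91 TPM in Kl/Kl. Anxa3 stood at 0.232, 0.203, 0.172 and 0.191 TPM in controls and at 0.237, 0.265, 1.83 and 0.350 TPM in Kl/Kl. Kl/Kl replicate 3 was more than 4 times the next library for both genes. Without it the mean of Anxa2 was 1.78 ± 0.131 TPM (SD, n = 3), 1.20-fold the control mean, and that of Anxa3 was 0.284 ± 0.0591 TPM, 1.42-fold. The log2 changes were then 0.25 for Anxa2 and 0.35 for Anxa3 (limma adjusted p = 0.312 for each), beside 0.84 and 0.94 with it. Lcn2 and Anxa3 were the 2 of 9 genes higher without overlap in females, beside 3.5% of all genes with all libraries and 10.1% without Kl/Kl replicate 3, and 0 of 9 were lower without overlap, beside 3.04% and 3.42%. In females 0 of 9 genes were called, with and without Kl/Kl replicate 3, and at an unadjusted p under 0.05 there were 3 and 6 of 9, beside 4.27% and 14.8% of all genes.

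The change in males was set against that in females in a model of all 4 groups. None of the 9 genes differed past the threshold, where 0.317% of all genes did with all 16 libraries (0.0396% with the change higher in males) and 2.39% did without the 2 libraries that stood apart. An unadjusted p under 0.05 was found for 1 of 9 with all libraries, beside 8.82% of all genes, and for 2 of 9 without them, beside 16.9%. Without them, the change of Tnfrsf12a was lower in males by a log2 difference of -0.85 (95% interval -1.65 to -0.05, limma adjusted p = 0.265), and that of Anxa2 was higher in males by 0.41 (0.01 to 0.80, limma adjusted p = 0.285). For Havcr1 the difference was -1.24 (-2.66 to 0.17) and for Lcn2 0.78 (-0.66 to 2.22), intervals that hold both no difference and a large one. With all libraries the gene at an unadjusted p under 0.05 was Plaur (0.95, limma adjusted p = 0.528).

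The library names carry a prefix, DK or FdK, whose meaning the labels do not give, and both prefixes occur in every group. Within each prefix the male Kl/Kl mean of Havcr1 was below that of controls, at a ratio of 0.250 in DK (1 control, 2 Kl/Kl) and 0.0595 in FdK (2 controls, 3 Kl/Kl). Lcn2 stood at 9.99 and 8.18 times control, Plaur at 3.29 and 2.29, Anxa2 at 2.38 and 1.53 and Anxa3 at 2.60 and 1.59. For Tnfrsf12a (1.77 and 0.746), Gdf15 (2.29 and 0.842), Clu (2.81 and 0.960) and Itgb6 (1.77 and 0.474) the ratios in males pointed opposite ways, with male control replicate 3 as the one DK control. In females without Kl/Kl replicate 3 the ratios were 0.179 (1 against 1) and 0.271 (3 against 2) for Havcr1 and 3.82 and 3.38 for Lcn2.

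Ligands, receptors and binding partners of the 9 genes were followed as a list of 18, of which 14 could be tested. In males 1 of 14 rose and 0 fell, at a median log2 change of 0.32 beside 0.27 for all genes. The one was Plat, tissue plasminogen activator, which annexin A2 binds (2.46 to 6.05 TPM in mean, log2 change 1.26, limma adjusted p = 0.0345), and it was not called without control replicate 3 (1.05, adjusted p = 0.0632). Plau, the urokinase that Plaur binds, stood at 65.6 and 75.6 TPM (log2 change 0.27, adjusted p = 0.590). Tnfsf12, the ligand TWEAK of Tnfrsf12a, stood at 1.42 and 1.73 TPM (0.24, adjusted p = 0.484), and Itgav, the partner of Itgb6, at 1.60 and 2.04 TPM (0.47, adjusted p = 0.381). S100a10, the partner of Anxa2, stood at 7.93 and 8.12 TPM (0.03, adjusted p = 0.939). In females 0 of 14 were called, and Lrp2, the megalin receptor that takes up filtered Lcn2, had a log2 change of -0.63 (limma adjusted p = 0.192) without Kl/Kl replicate 3. In males the change of Lrp2 was -0.20 (adjusted p = 0.844), and -1.08 (adjusted p = 0.0790) without control replicate 3. Plau, Tnfsf12, Itgav and S100a10 are given as direct partners, chosen after their values were seen.

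Of the other annexins, 7 of 10 could be tested in males and 0 were called with all libraries. At an unadjusted p under 0.05 there were 2 of 7, beside 4541 of all 17382 genes tested. Anxa1, which dampens inflammation, had a log2 change of 0.74 (limma adjusted p = 0.0581) and was called without control replicate 3 (0.423 to 0.836 TPM, 0.82, adjusted p = 0.0386). Anxa6 had one of 0.65 (adjusted p = 0.117). The median of the list was 0.31 beside 0.27 for all genes. In females without Kl/Kl replicate 3, 0 of 7 were called, and Anxa1 had a log2 change of 0.53 (adjusted p = 0.307) and Anxa9 of 0.14 (adjusted p = 0.661).

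Other genes read as signs of tubular injury, Cst3 and B2m among them, were followed as a list of 28, of which 21 could be tested in males. With all libraries 4 rose and 0 fell, at a median log2 change of 0.73 beside 0.27 for all genes. They were Spp1, the secreted osteopontin (62.2 to 230 TPM, 1.94, limma adjusted p = 0.00304), the keratin genes Krt20 (0.0476 to 0.352 TPM, 1.61, adjusted p = 0.00638) and Krt18 (4.03 to 10.9 TPM, 1.36, adjusted p = 0.0312), and Klf6, a transcription factor of early injury (3.82 to 9.03 TPM, 1.24, adjusted p = 0.0469). Without control replicate 3, 2 of 21 were called, Spp1 and Krt20, at a median of 0.58 beside 0.06. Havcr1 thus fell in the same male kidneys in which these genes rose. Others of the list also went down with all libraries. They were Hbegf (-0.60, limma adjusted p = 0.169), Il34 (-0.55, adjusted p = 0.187) and Sox9 (-0.27, adjusted p = 0.577). Without control replicate 3 these were at -0.77, -0.77 and -0.61, and none was called. In females without Kl/Kl replicate 3, 0 of 21 were called and 7 had an unadjusted p under 0.05, beside 14.8% of all genes. The largest log2 changes there were those of the chemokine gene Ccl2 (1.61, adjusted p = 0.264) and Krt20 (1.45, adjusted p = 0.253). Among genes of the integrated stress response, a pathway that also drives Gdf15, 0 of 7 tested were called in males and 0 of 6 in females without Kl/Kl replicate 3. Their largest values in males were those of Ppp1r15a (1.14, adjusted p = 0.117) and Sesn2 (0.98, adjusted p = 0.270). Chac1 (-0.78) and Ddit3 (-0.41) went the other way, and the list median was 0.02 beside 0.27 for all genes. Without control replicate 3 the list median was -0.37 beside 0.06. There Chac1 was at -1.10 (limma adjusted p = 0.114) and Ppp1r15a at 0.95 (adjusted p = 0.230), and 0 of 7 were called. In females the largest were those of Chac1 (-0.45, adjusted p = 0.348) and Sesn2 (-0.30, adjusted p = 0.503).

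**Figure D4:**
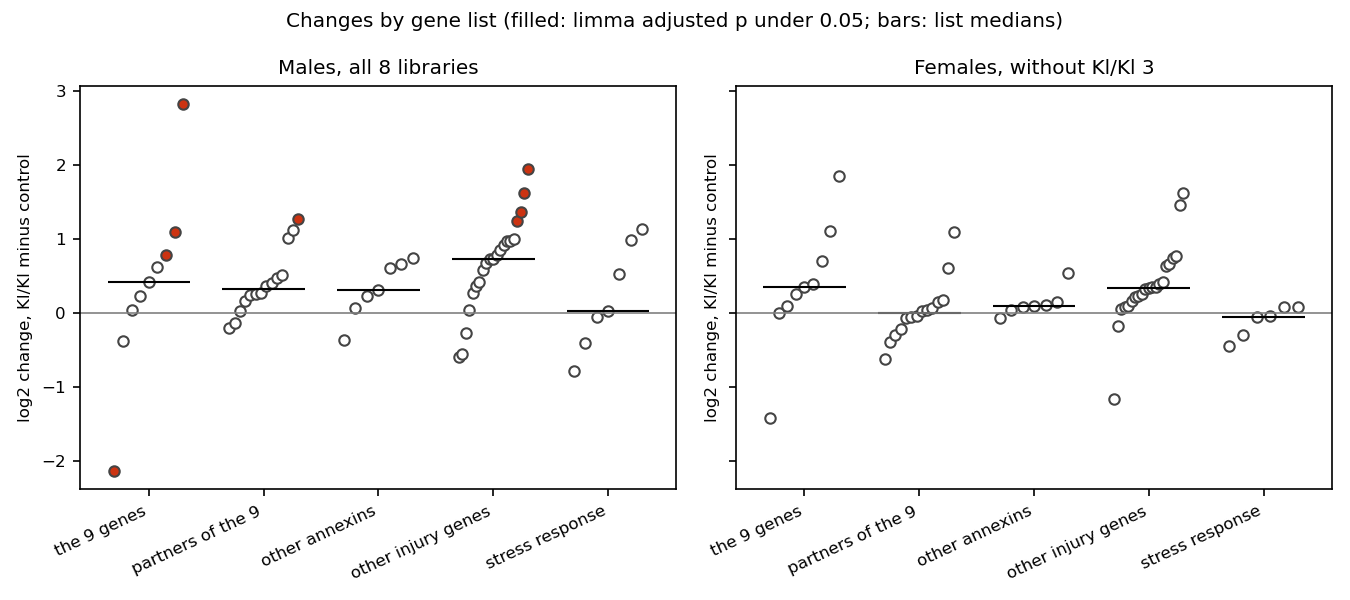
Change of each tested gene (points, y axis: Kl/Kl minus control on the log2(TPM + 0.1) scale) by gene list (x axis), in males with all libraries (left) and in females without Kl/Kl replicate 3 (right), with horizontal bars for list medians and filled points for adjusted p under 0.05. In males the filled points are 4 of the 9 genes, 1 partner and 4 other injury genes, and the right panel has none.

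Cells other than tubule cells could carry some of these genes, and their marker lists were read beside them. Macrophage markers (8 genes) summed to 7.30 to 13.0 TPM in male controls and 16.6 to 27.5 TPM in male Kl/Kl, with Cd14 (2.13 to 8.10 TPM, log2 change 1.85, limma adjusted p = 0.00846), Lyz2 (1.91 to 6.65 TPM, 1.77, adjusted p = 0.00583) and Cd68 (0.841 to 2.16 TPM, 1.20, adjusted p = 0.0420) called of 6 tested. Without control replicate 3, Cd14 and Lyz2 were called. Csf1r of the same list went the other way in males (2.47 to 1.36 TPM, -0.83, limma adjusted p = 0.0991) and was not called. C1qa (0.80) and C1qb (0.73) were higher and not called, so the list did not move as one. In females the macrophage markers summed to 11.8 to 19.6 TPM in controls and 14.1 to 44.1 TPM in Kl/Kl without replicate 3. In that replicate they summed to 500.0 TPM. Endothelial markers summed to 13.1 to 21.5 TPM in male controls and 20.7 to 38.9 TPM in male Kl/Kl, and urothelial markers to 4.59 to 8.56 and 7.37 to 15.1 TPM, with 0 of 8 and 0 of 7 called, and for both lists the groups overlapped. Adipocyte markers (6 genes) summed to 11.9, 7.75 and 12.9 TPM in male controls and to 42.0, 26.9, 31.8, 13.0 and 9.66 TPM in male Kl/Kl, with overlap, a median log2 change of 1.37 and 0 of 5 tested genes called. The part of these cells in the levels of the 9 genes was not tested.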

How the data were processed

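Expression values were deposited by the authors as TPM, males and females in separate tables (2 tables of 8 libraries and 30277 genes). The submitters' processing notes name mm39 and Partek. Which aligner and counting settings were used is not given in the sources used here. Columns of a table had 1 total (285327 in males, 265288 in females), no value was 0, and multiplying by genomic span gave whole reads within 0.05 for 75.3% to 77.2% of low values, so the TPM appear divided by span and reads are estimates. Groups and replicate numbers came from the labels. Values were tested as log2(TPM + 0.1) with limma 3.58.1 in R 4.3.3 (functions lmFit and eBayes, trend on) for genes averaging 0.1 TPM or more, Benjamini-Hochberg adjusted over all genes tested, within each table. The difference of the sexes' changes came from a 4-group model. Tables and motifs were handled in Python 3.11.15 with pandas 2.3.3 and NumPy 2.4.6, and plots drawn with matplotlib 3.10.9. The fit was tested on simulated data. All 9 genes are named, and from each other list up to 4 called genes by size of change or, where none was called, up to 2 with the largest change. One item that this rule names is not reported here. The members and lists were chosen with earlier results of these data known. Same-numbered libraries were checked for pairing: their deviations from group means correlated between -0.137 and 0.151, so numbers were not taken to pair samples.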

Additional observations from a re-analysis of the deposited data

Results flagged for a closer look

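In 4 of 27 groups of 4 or 5 libraries that were examined, 1 library of a gene lay far from the others of its group for the group's range. Chance flags about 1 group in 20. In females, Tnfrsf12a was at 7.41 TPM and Anxa2 at 1.73 TPM in control replicate 1, the highest control for both, which was also the highest control for 8 of the 9 genes and for 55.5% of all genes tested. Anxa2 was at 9.52 TPM and Anxa3 at 1.83 TPM in female Kl/Kl replicate 3, the library with heart muscle and airway markers.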

How the results depend on the processing

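In males with all libraries, 908 genes were called and 4 of the 9 genes. The count of all genes was 501 with a mean of at least 1 TPM, 500 with that filter and log2(TPM + 1), 1837 with median-of-ratios scaling, 2045 with the name prefix as a factor and 2767 with voom on estimated reads. The count of the 9 genes was 2 with log2(TPM + 1) and 1 with the 1 TPM filter, with no filter and with both changes. The 1 TPM filter leaves Havcr1, Plaur, Itgb6 and Anxa3 untested. Without control replicate 3, 1236 genes became 2193 with the prefix and 2359 with voom, and 3 of the 9 became 5 with voom.

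With the replicate number as a block, the male counts were 217 genes and 1 of the 9 (Lcn2, adjusted p = 0.0145; Havcr1 0.0873, Plaur 0.0780, Anxa2 0.165), and 30 and 0 without control replicate 3. The block gave 15 genes for the difference between the sexes, and 128 without the 2 libraries that stood apart, beside 56 and 420. The numbers do not pair the libraries, and the cause of lower counts was not tested.

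In females, where 0 genes were called, log2(TPM + 1) gave 3, the 1 TPM filter 2, no filter 8, both changes 3 and median-of-ratios scaling 1. Without Kl/Kl replicate 3 they gave 3, 2, 10 and 9 for the first 4, with 3 for the prefix and 32 for voom. The difference between the sexes gave 26 genes with log2(TPM + 0.01), 10 with the 1 TPM filter, 121 with no filter, 18 with both changes and 87 with median-of-ratios scaling. Leaving out 1 library in turn gave 301 to 1236 genes and 1 to 3 of the 9 in males, 0 to 3 and 0 to 0 in females, and 30 to 153 and 0 to 0 for the difference.

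Signs turned only for genes that were not called in that comparison: for Gdf15 in males with median-of-ratios scaling (-0.015) and, without control replicate 3, with the prefix (-0.25); for Tnfrsf12a in males with median-of-ratios scaling (-0.23) and voom (-0.094); for Clu without control replicate 3 with voom (0.0097); and for Itgb6 in females without Kl/Kl replicate 3 with log2(TPM + 1) (0.0057), the block (0.027) and the prefix (0.020). Leaving out 1 library gave -0.0015 to 0.45 for Gdf15, -0.15 to 0.17 for Tnfrsf12a, -0.77 to 0.014 for Itgb6 and -0.077 to 0.68 for Clu in males, and -0.31 to 1.11 for Gdf15 and -0.028 to 0.38 for Plaur in females. The cause was not tested. Depth limits Havcr1 most, at an estimated 6.02 reads in female Kl/Kl replicate 3, which stood apart, and 14.0 reads in the lowest of the other libraries.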

Other observations

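Male control replicate 1 was the highest and male control replicate 3 the lowest of the 3 male controls for all 9 genes. The same order was found in 45.1% of all genes tested, and replicate 3 is the male library that stood apart. Female control replicate 1 was the highest of 4 for 8 of the 9 genes, as it was for 55.5% of all genes tested, and the lowest for Plaur. Among male Kl/Kl libraries, replicate 1 was highest for Plaur and lowest for Havcr1, Clu, Gdf15 and Itgb6. Replicate 5 was highest for Havcr1, Clu and Itgb6 and lowest for Lcn2, Plaur, Tnfrsf12a, Anxa2 and Anxa3. The shares of all genes with these orders were not counted.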
